A study of Mus musculus with 16 samples.

Results

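The odorant receptor genes of mouse chromosome 17 were taken as all probe sets whose array name places them on chromosome 17 and whose platform symbol is Olfr followed by a number. This rule, which uses no measured value, gave 49 probe sets for 49 genes, out of 1091 odorant receptor probe sets and 22206 probe sets tested. All 49 matched the RefSeq gene table of GRCm38.p6 by gene identifier, and all 49 are protein coding and on chromosome 17 there. In that table they form 2 groups: Olfr55, Olfr239, Olfr1564 and Olfr63 come first, 177 other protein-coding genes follow, and the other 45 run from Olfr90 to Olfr136.

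Cells of the olfactory mucosa were obtained from S100a5-tauGFP mice on the C57BL/6 strain, in which green fluorescent protein (GFP) fused to tau reports S100a5, a gene whose transcription in olfactory neurons follows their activity. The 24 mice, of both sexes and 7 to 12 weeks old, spent 40 h singly in chambers of clean air, and from 26 h on received Undecanal, a fatty aldehyde odorant, or Vehicle, filtered air, in pulses of 10 s every 20 min. Each array measured RNA of one sort fraction from a pool of 3 mice on a Clariom S array, and the groups were undecanal titled GFP+, undecanal titled GFP-, vehicle titled GFP+ and vehicle titled GFP-, with 4 arrays each. All groups, vehicle included, carried the reporter and shared the chamber, and 1 array averages the cells of 3 animals.

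An olfactory sensory neuron expresses mainly one odorant receptor gene from one allele, and the receptor signals through the olfactory G protein (Gnal), adenylyl cyclase (Adcy3) and a cyclic nucleotide-gated channel (Cnga2). Receptor mRNA in a pool of sorted cells therefore counts neurons by the receptor they chose as well as the mRNA in each, and in bulk RNA fewer cells of a type and less RNA per cell cannot be told apart. The larger chromosome 17 cluster lies beside the major histocompatibility complex (MHC), an arrangement that mouse and human share. The odorants that activate these 49 receptors are not part of the material analysed, and no ligand is named below.

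The sign of the sort is in conflict in the labels. Titles and sample characteristics gave opposite GFP signs in 16 of 16 samples, and the fractions are therefore named by title, as titled GFP+ or titled GFP-. In undecanal pools 1 to 4, S100a5 had log2 signals of 15.96, 15.62, 15.74 and 15.75 in arrays titled GFP+, against 17.06, 16.94, 16.49 and 16.45 in arrays titled GFP-. In vehicle pools it had 15.62, 15.66, 15.54 and 15.84 in arrays titled GFP+, against 16.91, 16.37, 16.37 and 16.66 in arrays titled GFP-. The gene that drives the reporter was thus lower under the title GFP+ in 8 of 8 pools, by -0.97 on the log2 scale in undecanal pools (limma adjusted p = 3.94e-04) and by -0.91 in vehicle pools (limma adjusted p = 7.15e-04). If the characteristics rather than the titles hold, every difference between fractions below, and the interaction, changes its sign, and the undecanal differences within a fraction keep theirs.

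Values are log2 signals, on which a difference of 1 is a doubling, and the level of one probe set is not comparable with that of another. A background level of 4.80 was taken from 356 vomeronasal and bitter receptor probe sets, as the 95th percentile of their group means. Of the 49 receptors, 48 had a mean above it in at least 1 group and 46 in all 4 groups. Olfr108 lay below it in every group, with means of 4.25, 4.50, 4.04 and 4.44 in undecanal titled GFP+, undecanal titled GFP-, vehicle titled GFP+ and vehicle titled GFP- arrays. Group means of the 49 spanned 4.04 to 15.5. The olfactory neuron marker Omp averaged 18.80 ± 0.054, 18.85 ± 0.0721, 18.83 ± 0.0237 and 18.83 ± 0.076 in the same order of groups (SD, n = 4 each), far above background in every array and not called between fractions.

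The sequence around annotated gene starts was read for receptors with wide fraction differences. The RefSeq windows of GRCm38.p6, 250 bases before to 50 after the annotated start, were available for 35 of the 49 genes. In 23 of the 35 the annotated start reads ATG, as where a gene model begins at its coding start, and in 12 it does not. The 3 receptors lowest in titled GFP+ among those with a window are Olfr110 (chr17:37492218-37492517, plus strand), Olfr101 (chr17:37300435-37300734, minus strand) and Olfr125 (chr17:37834661-37834960, plus strand). The 3 highest are Olfr99 (chr17:37280369-37280668, minus strand), Olfr127 (chr17:37903298-37903597, plus strand) and Olfr114 (chr17:37590302-37590601, minus strand). Capitals mark matches, on either strand, to the letters of 3 motifs. These are TATAAA, as in a TATA box, CCCNNGGG, the core bound by the Olf-1/Ebf factors, and TAATTA, a homeodomain core such as Lhx2 binds. No printed match overlaps another.
Olfr110: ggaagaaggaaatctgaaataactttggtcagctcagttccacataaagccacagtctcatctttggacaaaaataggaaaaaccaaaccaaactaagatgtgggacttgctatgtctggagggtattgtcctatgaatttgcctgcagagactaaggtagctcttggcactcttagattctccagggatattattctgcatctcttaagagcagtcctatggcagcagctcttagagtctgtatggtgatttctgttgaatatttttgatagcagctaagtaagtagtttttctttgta
Olfr101: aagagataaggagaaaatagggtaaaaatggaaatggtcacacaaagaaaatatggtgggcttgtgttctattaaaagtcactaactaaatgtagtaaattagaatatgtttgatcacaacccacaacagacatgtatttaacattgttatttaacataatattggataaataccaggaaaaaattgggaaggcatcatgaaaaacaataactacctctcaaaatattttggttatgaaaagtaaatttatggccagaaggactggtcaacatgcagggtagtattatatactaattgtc
Olfr125: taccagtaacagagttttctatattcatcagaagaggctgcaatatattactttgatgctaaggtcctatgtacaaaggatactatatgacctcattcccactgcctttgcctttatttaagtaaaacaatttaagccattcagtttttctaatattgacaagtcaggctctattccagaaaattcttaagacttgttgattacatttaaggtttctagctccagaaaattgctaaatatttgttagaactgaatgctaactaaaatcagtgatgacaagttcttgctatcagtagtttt
Olfr99: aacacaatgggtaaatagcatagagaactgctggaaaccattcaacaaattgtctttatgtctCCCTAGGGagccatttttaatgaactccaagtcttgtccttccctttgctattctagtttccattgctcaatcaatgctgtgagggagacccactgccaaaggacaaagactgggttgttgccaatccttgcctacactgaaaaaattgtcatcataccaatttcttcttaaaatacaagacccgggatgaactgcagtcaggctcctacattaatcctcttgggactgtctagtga
Olfr127: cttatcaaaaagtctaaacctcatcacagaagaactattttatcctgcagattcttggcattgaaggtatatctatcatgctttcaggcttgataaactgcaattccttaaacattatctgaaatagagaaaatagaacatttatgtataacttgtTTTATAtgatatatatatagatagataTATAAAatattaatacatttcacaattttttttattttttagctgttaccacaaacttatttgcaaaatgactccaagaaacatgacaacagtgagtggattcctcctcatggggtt
Olfr114: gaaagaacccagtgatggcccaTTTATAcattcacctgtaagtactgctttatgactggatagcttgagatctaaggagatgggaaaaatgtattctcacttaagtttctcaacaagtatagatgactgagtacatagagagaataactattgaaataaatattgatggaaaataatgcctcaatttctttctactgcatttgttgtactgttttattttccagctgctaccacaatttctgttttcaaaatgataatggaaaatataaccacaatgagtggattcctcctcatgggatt

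The windows of Olfr110, Olfr101 and Olfr125 held none of the 3 motifs and have no ATG at the start, whereas those of Olfr99, Olfr127 and Olfr114 have ATG at the start. The window of Olfr99 holds 1 CCCNNGGG, that of Olfr127 holds 2 TATAAA matches and that of Olfr114 holds 1, read on the opposite strand as TTTATA. Over all 35 windows, TATAAA was present in 9 (25.7%), against 41.6% of 894 windows of receptors elsewhere and 13.6% of 32851 windows of all genes. Of the windows of receptors called lower in titled GFP+ in vehicle pools, 0 of 12 held it, against 5 of 9 for receptors called higher (55.6%) and 4 of 14 for those not called (28.6%). The 9 windows that hold it were all among the 23 with ATG at the start and 0 among the other 12. The 12 windows without ATG belonged to 0 receptors called higher, 6 called lower and 6 not called, and the 23 with ATG to 9, 6 and 8. Within the 23, TATAAA was in 5 of 9 windows of receptors called higher, 0 of 6 called lower and 4 of 8 not called. The part of the kind of gene model in these counts was not tested. CCCNNGGG was in 5 of 35 windows (14.3%), against 2.46% of receptors elsewhere and 13.7% of all genes, and TAATTA in 4 of 35 (11.4%), against 18.7% and 5.29%. A match is a run of letters and not a shown binding site, and these windows do not cover the whole of any regulatory region. A gene model that begins at its coding start does not give the start of transcription. Its window may therefore lie apart from the regulatory region, and a TATAAA match in it is not shown to be a TATA box.

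The first comparison asked which receptors differed between the sort fractions. Receptors of chromosome 17 split in both directions, and the widest differences were far beyond the spread between pools. In undecanal pools 27 of 49 (55.1%) passed the test of titled GFP+ against titled GFP-, 17 higher and 10 lower, where 13.2% of all probe sets passed (8.83% higher, 4.36% lower). In vehicle pools 29 of 49 (59.2%) passed, 14 higher and 15 lower, where 13.9% of all probe sets passed (8.82% higher, 5.12% lower). The test was limma with Benjamini-Hochberg adjustment over all 22206 probe sets and a threshold of 0.05. Other receptors behaved alike in share: 58% of the 1042 elsewhere passed in undecanal pools (23.7% higher, 34.3% lower) and 58.7% in vehicle pools (22.4% higher, 36.4% lower), so the share called among the 49 is near that of receptors in general. The 2 fractions' arrays did not overlap at all for 27 receptors in undecanal pools (17 higher, 10 lower), where 17.3% of all probe sets did not (9.43% higher, 7.83% lower), and for 24 in vehicle pools (13 higher, 11 lower), where 18.1% did not (9.83% higher, 8.26% lower).

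The split by direction moved with the scaling. After array median centring, undecanal pools gave 14 higher and 19 lower, where 1584 and 11129 of all 22206 probe sets were called so. Vehicle pools gave 12 higher and 20 lower, where 1570 and 11231 of all were. With centring on the mature neuron list, vehicle pools gave 16 higher and 9 lower, where 3596 and 423 of all were. Centring on the receptor median gave 15 higher and 9 lower in vehicle pools, where 2242 and 413 of all were. The median of all probe sets between fractions was -0.11 in both agents as deposited, -0.46 and -0.47 in undecanal and vehicle pools after array median centring, -0.02 and 0.13 after receptor median centring, and 0.20 in both after mature neuron list centring. The calls of 17 receptors, 9 higher and 8 lower, held in both agents and in all 19 alternatives: Olfr99, Olfr116, Olfr127, Olfr126, Olfr55, Olfr114, Olfr134, Olfr63 and Olfr128 on the higher side, and Olfr110, Olfr101, Olfr112, Olfr125, Olfr90, Olfr91, Olfr138 and Olfr109 on the lower.

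**Figure D1:**
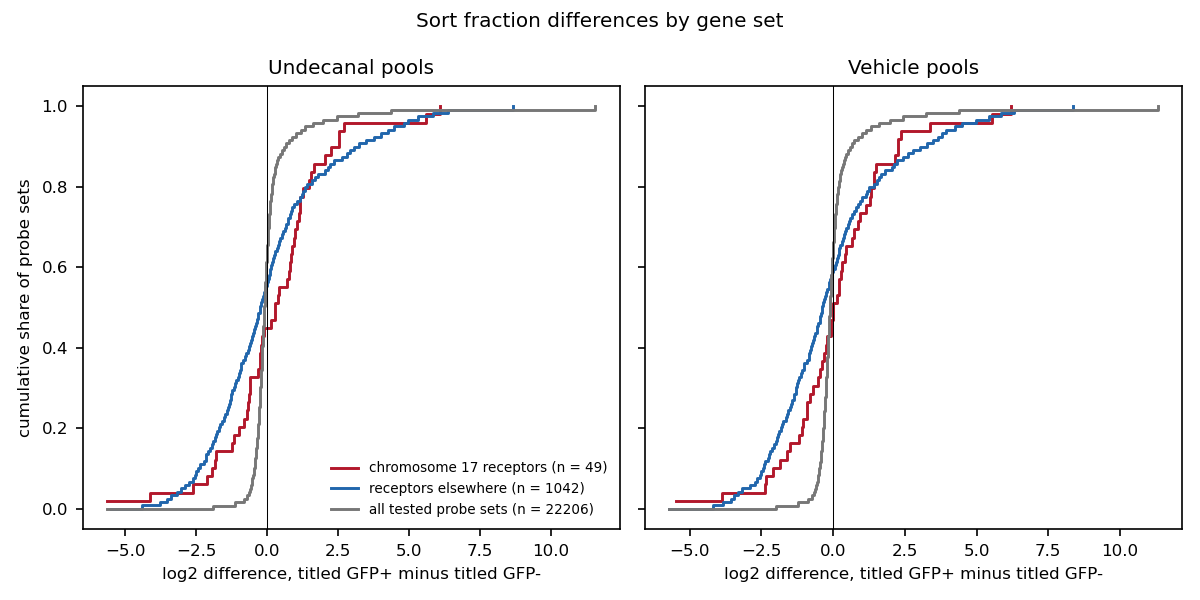
Cumulative share of probe sets (y axis) against the log2 difference of titled GFP+ minus titled GFP- (x axis), in undecanal pools (left) and vehicle pools (right), for the 49 chromosome 17 receptors (red), the 1042 receptors elsewhere (blue) and all 22206 tested probe sets (grey). Both receptor curves are spread much wider than the grey curve, and the red median is 0.29 in undecanal pools and -0.00 in vehicle pools, against -0.25 and -0.38 for receptors elsewhere.

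Olfr99 had the widest difference on the higher side. Its log2 signal in pools 1 to 4 was 13.90, 14.16, 13.25 and 13.58 in undecanal arrays titled GFP+, against 8.69, 8.13, 7.37 and 6.41 in those titled GFP-. Vehicle pools gave 13.69, 13.97, 13.41 and 13.63 in arrays titled GFP+, against 8.49, 7.91, 6.65 and 6.91 in those titled GFP-. The fractions were more than 4 log2 units apart at their nearest arrays in either agent. The difference was 6.08 (SE 0.422, limma adjusted p = 6.63e-09), 67.4-fold, in undecanal pools and 6.19 (limma adjusted p = 4.93e-09), 72.9-fold, in vehicle pools.

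Olfr116 followed with 13.88, 13.43, 13.39 and 13.25 in undecanal arrays titled GFP+, against 7.13, 8.47, 8.13 and 7.82 in those titled GFP-. In vehicle pools it had 13.23, 14.10, 13.61 and 13.52 in arrays titled GFP+, against 8.57, 8.01, 9.07 and 6.62 in those titled GFP-. The arrays titled GFP+ lay close together and those titled GFP- were spread, with an SD of 1.06 in vehicle arrays titled GFP-, the highest of any of the 49 in that group. The differences were 5.60 (SE 0.395, limma adjusted p = 8.06e-09) in undecanal pools and 5.55 (limma adjusted p = 8.71e-09) in vehicle pools.

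Olfr127 had 7.88, 7.81, 8.06 and 8.50 in undecanal arrays titled GFP+, against 5.55, 5.28, 5.77 and 4.83 in those titled GFP-, and in vehicle pools 7.83, 8.50, 8.19 and 8.41 in arrays titled GFP+, against 5.50, 4.10, 4.52 and 5.32 in those titled GFP-. Its titled GFP- arrays were close to the background level and the groups did not overlap. The difference was 2.70 in undecanal pools (SE 0.282, limma adjusted p = 1.27e-06) and 3.38 in vehicle pools (limma adjusted p = 7.16e-08). Olfr126, the receptor next to it in order, with 2 other RefSeq genes between, differed by 2.53 and 2.36 in undecanal and vehicle pools (limma adjusted p = 4.43e-05 and 9.35e-05), and Olfr114 by 2.52 and 2.25 (limma adjusted p = 1.49e-04 and 4.74e-04). Probes of close paralogs can take up each other's transcripts, and how alike the sequences of these receptors are was not computed here, so a value of one receptor in a run of similar genes is uncertain.

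Olfr55, in the small first cluster, had 15.68, 15.11, 15.41 and 15.79 in undecanal arrays titled GFP+, against 13.70, 13.52, 13.02 and 12.84 in those titled GFP-, and in vehicle pools 15.99, 15.39, 15.25 and 15.09 in arrays titled GFP+, against 13.83, 12.98, 12.83 and 12.99 in those titled GFP-. It was 4.69-fold higher in undecanal pools (log2 difference 2.23, SE 0.253, limma adjusted p = 3.53e-06) and 4.84-fold higher in vehicle pools (limma adjusted p = 2.65e-06). Of the other genes in that cluster, Olfr63 was higher by 1.47 and 1.42 in undecanal and vehicle pools (limma adjusted p = 0.00248 and 0.00319). Olfr239 had differences of 0.43 and 0.15 and Olfr1564 of 0.76 and 0.43, and neither passed in either agent. The first cluster thus had 2 receptors higher, 0 lower and 2 not called, in each agent. The cluster beside the MHC had 15 higher and 10 lower of 45 in undecanal pools, and 12 higher and 15 lower in vehicle pools.

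Further receptors called higher in both agents were Olfr134 (2.04 and 2.17 in undecanal and vehicle pools), Olfr117 (1.53 and 1.50), Olfr137 (1.06 and 1.42), Olfr98 (1.65 and 1.16), Olfr130 (1.11 and 1.29), Olfr132 (1.27 and 0.88) and Olfr128. The titled GFP- means of Olfr128, 4.58 in undecanal and 4.52 in vehicle arrays, were below background, so it was at least 1.59-fold higher in undecanal pools and at least 2.04-fold higher in vehicle pools (limma adjusted p = 2.38e-04 and 2.64e-06). Calls of Olfr117 were lost in undecanal pools without pool 2 or 4 (limma adjusted p = 0.0787 and 0.104) and in vehicle pools without pool 2, 3 or 4 (limma adjusted p = 0.151, 0.0508 and 0.0927). That of Olfr137 was lost in undecanal pools without pool 3 (limma adjusted p = 0.0604). In vehicle pools Olfr98 lost its call without vehicle pool 2, 3 or 4 or undecanal pool 1 (limma adjusted p = 0.133, 0.0774, 0.145 and 0.0522), and Olfr132 without any 1 of the vehicle pools (highest limma adjusted p = 0.115). Olfr130 lost its call in undecanal pools without undecanal pool 1 or 4 or vehicle pool 2 (limma adjusted p = 0.121, 0.124 and 0.0523) and in vehicle pools without vehicle pool 2 or 4 (limma adjusted p = 0.06 and 0.123). In undecanal pools Olfr130 also lost it with array median centring or only the groups compared in the fit (limma adjusted p = 0.0553 and 0.0752), and array median centring ended the vehicle calls of Olfr98 and Olfr132 (limma adjusted p = 0.051 and 0.103).

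**Figure D2:**
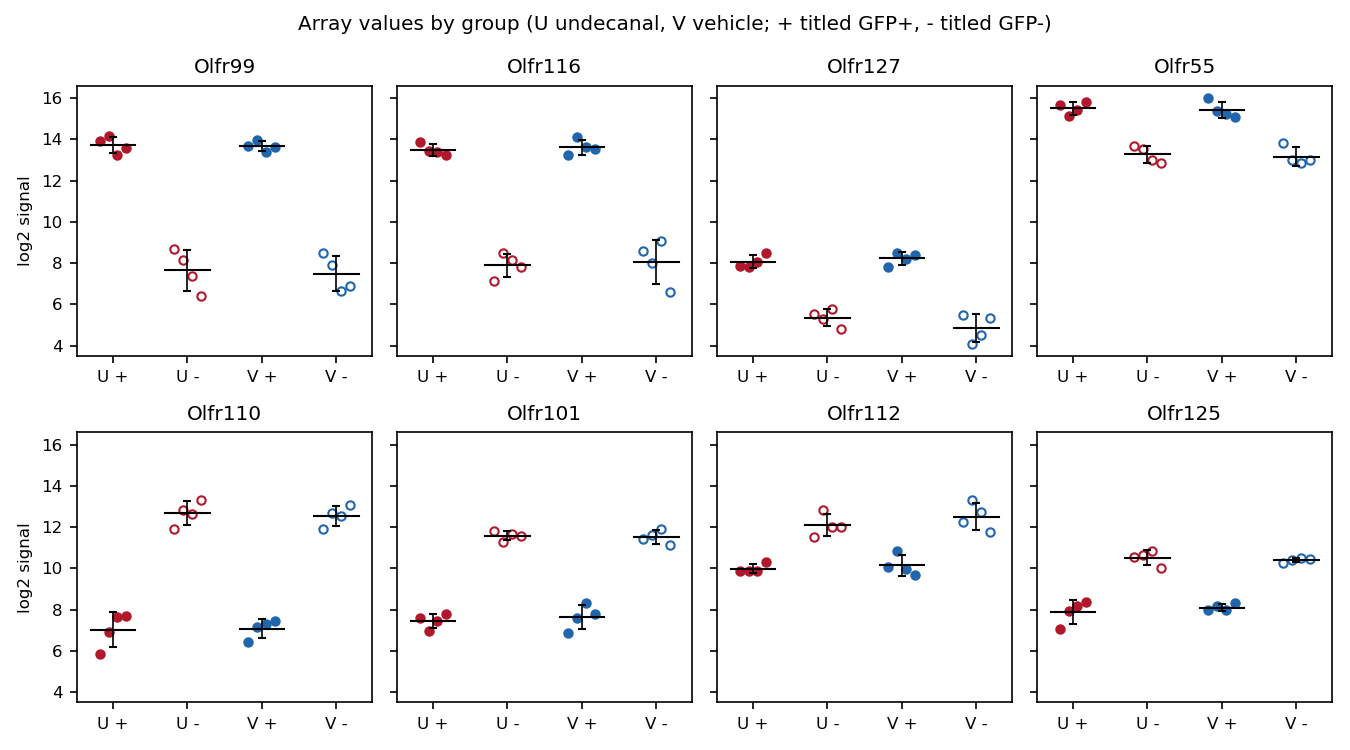
Log2 signal (y axis) of 8 receptors in every array: undecanal (U) titled GFP+ and titled GFP-, then vehicle (V) titled GFP+ and titled GFP- (x axis), with 4 arrays per group, pools 1 to 4 from left to right, and the mean and SD as lines. Olfr99, Olfr116, Olfr127 and Olfr55 are higher and Olfr110, Olfr101, Olfr112 and Olfr125 lower in every array titled GFP+ than in any array titled GFP- of the same agent.

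On the lower side Olfr110 stood out. It had 5.87, 6.91, 7.66 and 7.67 in undecanal arrays titled GFP+, against 11.92, 12.84, 12.65 and 13.29 in those titled GFP-. In vehicle pools it had 6.41, 7.16, 7.31 and 7.44 in arrays titled GFP+, against 11.93, 12.67, 12.53 and 13.08 in those titled GFP-. The value was lowest in pool 1 of both fractions and both agents. The difference of -5.65 in undecanal pools (SE 0.375, limma adjusted p = 3.62e-09) was the lowest of all 22206 probe sets in that comparison, and in vehicle pools it was -5.47 (limma adjusted p = 5.07e-09), where the lowest of all was -5.71.

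Olfr101 had 7.61, 6.98, 7.44 and 7.77 in undecanal arrays titled GFP+, against 11.79, 11.28, 11.66 and 11.58 in those titled GFP-, and in vehicle pools 6.88, 7.62, 8.31 and 7.81 in arrays titled GFP+, against 11.42, 11.63, 11.92 and 11.13 in those titled GFP-. Its fractions stayed more than 2 log2 units apart at their nearest arrays. It was lower by -4.13 in undecanal pools (SE 0.256, limma adjusted p = 1.57e-09) and by -3.87 in vehicle pools (limma adjusted p = 3.23e-09). Olfr112 had 9.88, 9.89, 9.86 and 10.31 in undecanal arrays titled GFP+, against 11.54, 12.83, 11.99 and 12.01 in those titled GFP-, and in vehicle pools 10.06, 10.85, 9.97 and 9.70 in arrays titled GFP+, against 12.24, 13.32, 12.73 and 11.75 in those titled GFP-. Its differences were -2.11 (SE 0.318, limma adjusted p = 9.22e-05) in undecanal and -2.37 (limma adjusted p = 2.60e-05) in vehicle pools, and pool 2 was the highest vehicle pool in both fractions.

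Olfr125 had 7.06, 7.93, 8.18 and 8.38 in undecanal arrays titled GFP+, against 10.57, 10.63, 10.86 and 10.00 in those titled GFP-. In vehicle pools it had 7.96, 8.16, 7.97 and 8.30 in arrays titled GFP+, against 10.28, 10.43, 10.51 and 10.46 in those titled GFP-. The vehicle arrays of either fraction differed by less than 0.4 among themselves, so the difference of -2.33 (limma adjusted p = 7.63e-07) stands far outside that spread, and the undecanal difference was -2.63 (SE 0.234, limma adjusted p = 1.68e-07). The further lower calls in both agents were Olfr90 (-1.95 and -2.10 in undecanal and vehicle pools), Olfr91 (-1.80 and -1.84), Olfr138 (-1.85 and -1.59), Olfr109 (-1.24 and -1.52), Olfr131 (-1.01 and -1.03) and Olfr136 (-1.17 and -0.92). Olfr131 lost its call without undecanal pool 2 in undecanal pools (limma adjusted p = 0.0794) and without vehicle pool 2 in vehicle pools (limma adjusted p = 0.0517). Olfr136 lost its call without undecanal pool 2 in undecanal pools (limma adjusted p = 0.0546) and in vehicle pools when either of the vehicle pools 1 and 2 was left out (limma adjusted p = 0.134 and 0.176). In vehicle pools Olfr136 also lost it with mature neuron list centring, receptor median centring or only the groups compared in the fit (limma adjusted p = 0.151, 0.0728 and 0.0722).

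The fraction differences were much the same in both agents, which share no array. Their calls come from the same fit with a shared estimate of spread, so calls in both agents are not separate tests. Of the 49 receptors, 24 were called in both agents (14 higher, 10 lower), 8 in one agent only, and 17 in neither, and 0 were called in opposite directions. The sign agreed in 46 receptors between agents and in all 8 pools for 31. Pearson's r of the differences over the 49 receptors was 0.987, given as a description. Of the 29 receptors called in vehicle pools, 28 had the same sign in 4 of 4 vehicle pools, and Olfr115 was the exception, with 12.34 in titled GFP+ against 12.29 in titled GFP- in pool 2. The same 4 vehicle pools gave the calls, so this count is a description and no separate support.

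A call in one agent alone does not show that the agents differ, and the interaction given below passed for none of the receptors. Those passing in vehicle pools only, all lower, were Olfr92 (-0.62 and -0.69 in undecanal and vehicle pools), Olfr93 (-0.69 and -0.90), Olfr113 (-0.33 and -0.80), Olfr115 (-0.83 and -1.08) and Olfr124 (-0.73 and -1.19). With the pool as a block for its 2 fractions, Olfr113 and Olfr115 in vehicle pools no longer passed (limma adjusted p = 0.0545 and 0.0502) and Olfr124 passed in undecanal pools too (limma adjusted p = 0.0345). Those passing in undecanal pools only, all higher, were Olfr120 (1.14 and 0.22), Olfr94 (0.85 and 0.46) and Olfr122 (0.80 and 0.27). Of these 8 calls, the one of Olfr120 held in all 19 alternatives, and leaving out 1 pool ended each of the others. Without vehicle pool 1 the limma adjusted p in vehicle pools was 0.176 for Olfr92, 0.227 for Olfr93, 0.216 for Olfr113 and 0.178 for Olfr115, and without vehicle pool 2 it was 0.0997 for Olfr124. Without undecanal pool 1 the limma adjusted p in undecanal pools was 0.124 for Olfr94 and 0.282 for Olfr122. Mature neuron list and receptor median centring each ended all 5 of the vehicle calls, and array median centring ended the calls of Olfr94 and Olfr122. Olfr111 differed by 1.17 in undecanal pools (SE 0.43) and 0.94 in vehicle pools without passing (limma adjusted p = 0.0899 and 0.175). It passed in both with the pool as a fixed block (limma adjusted p = 0.0161 and 0.0437). With the pool as a random block Olfr111 passed in undecanal pools only (limma adjusted p = 0.0446). Its undecanal arrays titled GFP+ ran from 5.78 in pool 1 to 8.45 in pool 2, with an SD of 1.12, the highest of the 49 in that group. In undecanal pools the fixed block alone added Olfr761 (limma adjusted p = 0.0108) and Olfr129 (0.94, limma adjusted p = 0.0493). Olfr761 was at least 1.27-fold higher because its mean of 4.22 in arrays titled GFP- was below background. In vehicle pools the fixed block added Olfr133 (-0.52, limma adjusted p = 0.0141) and Olfr107 (-0.46, limma adjusted p = 0.0354). The random block changed no call in vehicle pools.

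**Figure D3:**
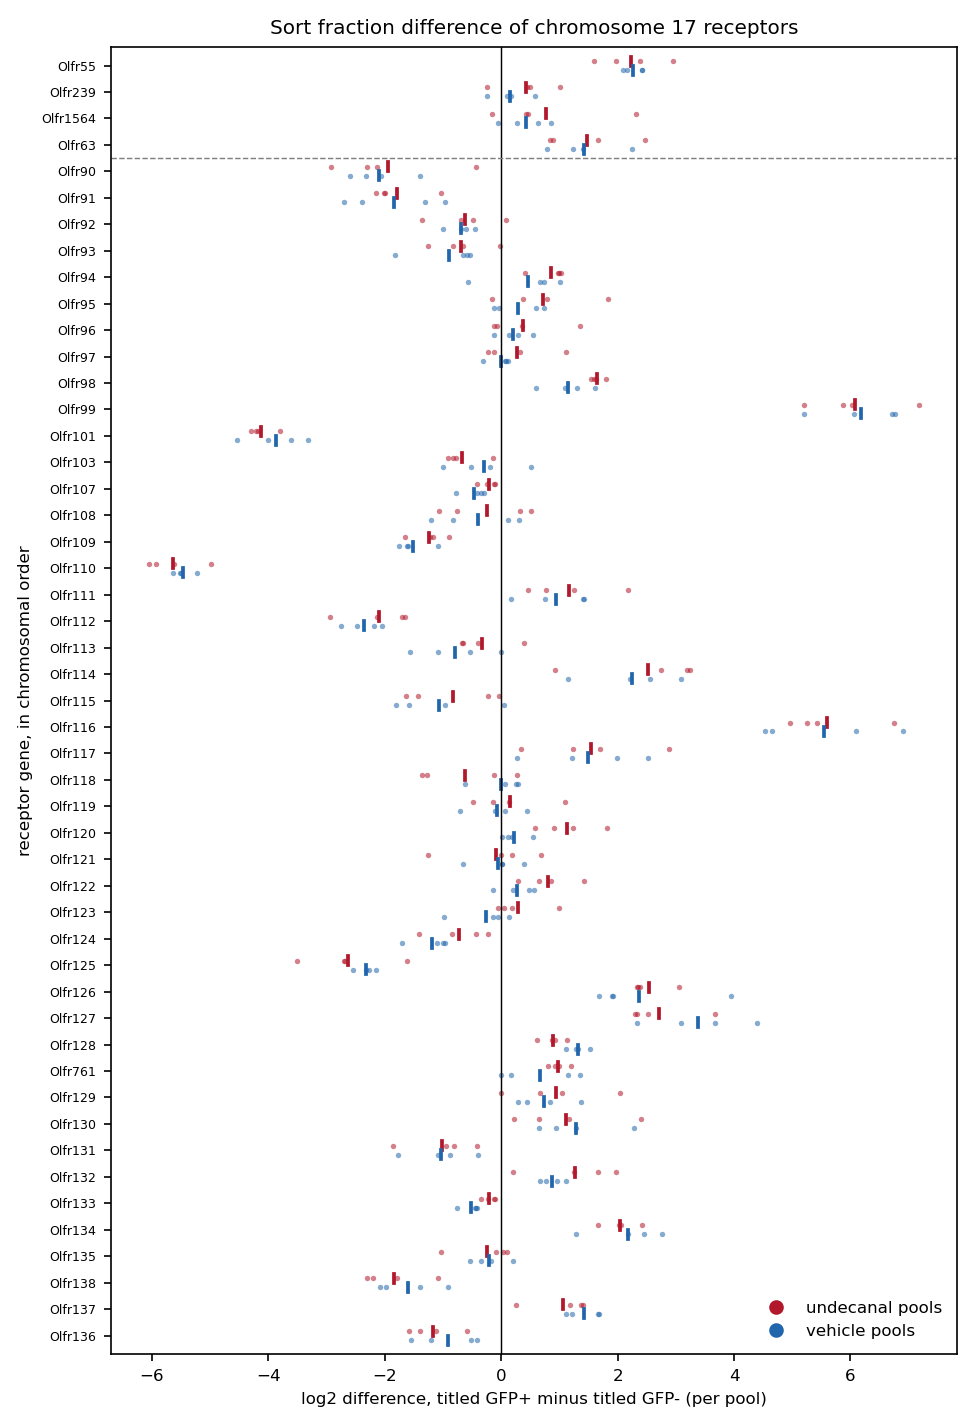
Log2 difference of titled GFP+ minus titled GFP- (x axis) for the 49 receptors in RefSeq order along chromosome 17 (y axis, top to bottom), with 1 point per pool and a bar at the mean, undecanal pools in red and vehicle pools in blue. The dashed line parts the first 4 genes from the 45 beside the MHC. Olfr99, at 6.08 in undecanal and 6.19 in vehicle pools, and Olfr101, the next of the 49 in order, at -4.13 and -3.87, differ in opposite directions.

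Adjacent receptors were called in opposite directions about as often as in the same direction. Among 47 pairs of adjacent receptors, in vehicle pools, 10 were called in the same direction, 9 in opposite directions, 16 had 1 member called and 12 had none. In undecanal pools 6 were called in the same direction, 6 in opposite directions, 26 had 1 member called and 9 had none. The vehicle differences of adjacent receptors had a Pearson's r of -0.0194 over the 47 pairs, as a description. The widest step was between Olfr99 and Olfr101, whose vehicle differences lie 10.06 log2 units apart, followed by Olfr115 and Olfr116 at 6.63, with no other RefSeq gene between the last pair. The adjacent Olfr110 and Olfr111 were 6.41 apart. Olfr131 and Olfr137 were called in the direction opposite to both of their neighbours in each agent, and also with the pool as a block. Olfr114 and Olfr115 were so in vehicle pools but not in undecanal pools, nor in vehicle pools with the pool as a fixed block, where Olfr113 and Olfr115 no longer passed. Olfr111 was so in undecanal pools under either block, and Olfr111, Olfr132 and Olfr133 in vehicle pools under the fixed block. Array median centring ended a neighbour call of Olfr131, that of Olfr130 in undecanal and of Olfr132 in vehicle pools. Mature neuron list or receptor median centring ended the vehicle call of Olfr136, next to Olfr137. At the start of the larger cluster Olfr90, Olfr91, Olfr92 and Olfr93 were all lower in vehicle pools.

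Other cell types moved with the same sort. All 14 of 14 neutrophil and monocyte markers were higher in titled GFP+ in both agents. The log2 of their summed signal ran from 18.14 to 18.81 in undecanal titled GFP+ arrays and from 8.51 to 8.99 in undecanal titled GFP- arrays, and from 18.20 to 18.88 in vehicle titled GFP+ arrays and from 8.21 to 9.07 in vehicle titled GFP- arrays. Of the 14 markers, 0 were below background in either titled GFP+ group, 8 in undecanal titled GFP- arrays and 7 in vehicle titled GFP- arrays. Microvillar cell markers were higher in 9 of 10 in undecanal pools and 10 of 10 in vehicle pools, with summed signals of 14.02 to 14.62 against 10.93 to 11.60 in undecanal pools and 13.13 to 14.40 against 11.07 to 11.56 in vehicle pools, titled GFP+ first. Progenitor and cell cycle markers were higher in 10 and 9 of 11 in undecanal and vehicle pools, sustentacular cell markers in 4 of 10 in each, lymphocyte markers in 5 and 4 of 6 and erythroid markers in 2 of 2 in each. None of these lists had a lower call. The part of these cells in the receptor differences was not tested.

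Markers of neuronal maturity and activity also moved with the sort. Immature neuron markers were higher in 7 and 9 of 14 in undecanal and vehicle pools and lower in 0, among them Gng8, a G protein subunit of immature neurons (3.91 and 4.39), Dpysl3 (3.76 and 3.94) and Tex15 (3.67 and 3.80). Mature neuron markers were lower in 5 of 18 in each agent and higher in 0. Among the lower ones were Ano2, Slc24a4 and Pde1c, which the signal transduction list below also holds. Activity-raised genes were lower in 5 and 6 of 6. The part of neuronal maturity and activity in the receptor differences was not tested.

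Of the genes through which the receptors act, the signal transduction list had 0 of 15 higher and 3 lower in undecanal pools, and 0 higher and 4 lower in vehicle pools. The lower ones were the phosphodiesterases Pde1c (-0.52 and -0.65 in undecanal and vehicle pools) and Pde4a (-0.38 and -0.53), the chloride channel Ano2 (-0.42 and -0.51) and the sodium-calcium exchanger Slc24a4 (-0.44 and -0.60), and Pde4a passed in vehicle pools only. Gnal had differences of -0.06 and -0.15, Adcy3 of -0.17 and -0.34 and Cnga2 of -0.23 and -0.13, and none of the 3 passed. Of 15 genes of receptor choice and trafficking, 1 was higher in each agent, Lbr, the lamin B receptor (0.99 and 1.07), and 0 were lower. The homeodomain factor Lhx2 had differences of 0.01 and -0.05 and Ebf1 of -0.05 and -0.10. The differences of Olfr99, Olfr116, Olfr110 and Olfr101 were wider than that of any gene named here from these lists of the shared machinery.

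Among 28 measured MHC region genes that are not odorant receptors, 6 were higher and 1 lower in undecanal pools, and 5 higher and 1 lower in vehicle pools. Below background were 16 and 18 of the 28 in undecanal arrays titled GFP+ and GFP-, and 15 and 17 in vehicle arrays. Trim10, called higher in undecanal pools, and Mog, the lower call there, were below background in both fractions. Among the higher ones were the class I genes H2-K1 (3.49 and 3.80 in undecanal and vehicle pools) and H2-T23 (1.32 and 1.28). H2-D1 and H2-Q4 were below background in arrays titled GFP-, so H2-D1 was at least 7.77-fold and 7.58-fold higher, and H2-Q4 at least 1.59-fold and 1.52-fold higher, in undecanal and vehicle pools. H2-M3 was also called in both, but in undecanal pools both fractions were below background, and in vehicle pools it was at least 1.1-fold higher. They lie in the same chromosomal region as the receptors of the larger cluster, in which 15 of 45 were higher in undecanal pools and 12 in vehicle pools. Class I genes are expressed by most cell types, and the part of other cells in their values was not tested.

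The second comparison asked whether undecanal changed receptor mRNA within a fraction. In arrays titled GFP+, 0 of 49 receptors passed for undecanal against vehicle, where 0.0045% of all probe sets did (1 probe set, the adhesion molecule Pcdh10). Unadjusted p under 0.05 was reached by 1 of 49 receptors (2.04%), against 2.72% of all probe sets. The 49 differences ran from -0.54 to 0.35 with a median of -0.05, and the groups were apart for 0 receptors, against 1.87% of all probe sets. In arrays titled GFP-, 0 of 49 passed, where 0% of all probe sets did, and 6 reached an unadjusted p under 0.05 (12.2%), against 4.12% of all probe sets and 5.95% of receptors elsewhere. There the differences ran from -0.72 to 0.54 with a median of -0.14, 33 of 49 were negative, and the groups were apart for 0 receptors, against 2.2% of all probe sets. Median differences in arrays titled GFP- were -0.09 for receptors elsewhere and 0.00 for all probe sets.

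The receptors of smallest p were small in effect. In arrays titled GFP+, Olfr128 had 5.34, 5.72, 5.27 and 5.53 in undecanal pools, against 5.77, 6.10, 5.70 and 5.76 in vehicle pools, and the groups overlapped only through undecanal pool 2. The difference was -0.36 (SE 0.146, unadjusted p = 0.0229 in limma, adjusted p = 0.999). Olfr138 (-0.51), Olfr134 (-0.54) and Olfr136 (-0.42) followed, each with a limma adjusted p of 0.999. In arrays titled GFP-, Olfr120 had 7.36, 7.68, 7.06 and 6.30 in undecanal pools, against 7.96, 7.80, 7.57 and 7.64 in vehicle pools, overlapping in 1 array. The difference was -0.64 (SE 0.219, unadjusted p = 0.00922 in limma, adjusted p = 1). Olfr123 (-0.61, SE 0.245), Olfr124 (-0.72, SE 0.313) and Olfr133 (-0.47, SE 0.212) followed, also at a limma adjusted p of 1. The other receptors under an unadjusted p of 0.05 there were Olfr118 and Olfr132, named after their values were seen.

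The interaction, the undecanal difference in titled GFP+ minus that in titled GFP-, passed for 0 of 49 receptors, where 0% of all probe sets passed. It reached an unadjusted p under 0.05 for 1 of 49 (2.04%), against 2.63% of all probe sets, and ran from -0.67 to 0.92. That receptor was Olfr120, at 0.92 (SE 0.309, unadjusted p = 0.00854 in limma, adjusted p = 1). Its undecanal arrays had 8.26, 8.26, 8.30 and 8.11 in titled GFP+, against 7.36, 7.68, 7.06 and 6.30 in titled GFP-. Its vehicle arrays had 8.14, 7.82, 8.11 and 7.75 in titled GFP+, against 7.96, 7.80, 7.57 and 7.64 in titled GFP-, nearly level in pools 2 and 4. Olfr118 (-0.62) and Olfr127 (-0.67) were among the next by p, with limma adjusted p of 1. The vehicle arrays titled GFP- of Olfr127 included 4.10 and 4.52, below the background level of 4.80, so its size is uncertain. Olfr128 was also among the next by p, but no size is given for it, since its arrays titled GFP- were below background. A p that misses the threshold does not show that undecanal left a receptor as it was.

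**Figure D4:**
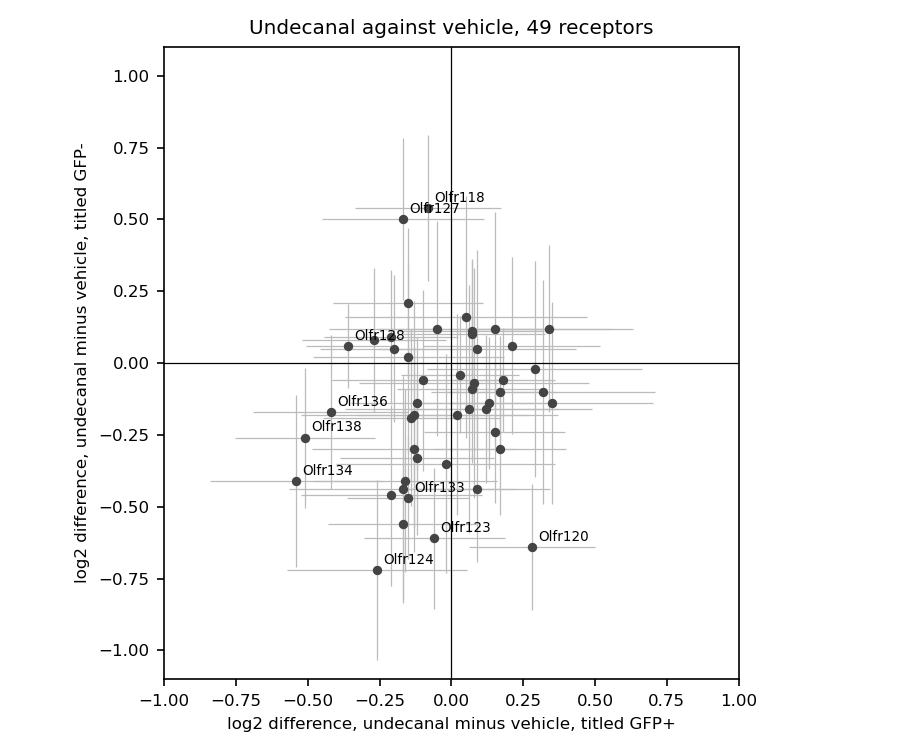
Log2 difference of undecanal minus vehicle in arrays titled GFP+ (x axis) and in arrays titled GFP- (y axis) for the 49 receptors, with standard errors as grey lines and the receptors of smallest p named. All points lie between -0.54 and 0.35 on the x axis and between -0.72 and 0.54 on the y axis, and more of them lie below the horizontal line than above it.

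Pools differed more in these receptors than in most probe sets. The median SD of the 49 was 0.315, 0.483, 0.363 and 0.453 in undecanal titled GFP+, undecanal titled GFP-, vehicle titled GFP+ and vehicle titled GFP- arrays, against 0.245, 0.261, 0.246 and 0.264 over all probe sets. The highest were 1.12 for Olfr111, 0.987 for Olfr99, 0.957 for Olfr91 and 1.06 for Olfr116, one in each group in the same order.

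Across the 16 arrays the probe sets most like Olfr99 were Olfr1297 (Pearson's r = 0.9916), Atp8b4, a phospholipid-transporting ATPase (0.9915), and Olfr1495 (0.9911). Those most like Olfr110 were Olfr860 (0.9878), Olfr533 (0.9874) and Olfr481 (0.9857). All 6 differed between fractions, by 6.92 and 6.30 in undecanal and vehicle pools for Olfr1297, 3.37 and 3.68 for Atp8b4, 5.25 and 5.81 for Olfr1495, -3.61 and -3.51 for Olfr860, -4.55 and -4.46 for Olfr533, and -4.92 and -5.04 for Olfr481. The 16 arrays share the sort, and the points of each correlation therefore fall into the steps between fractions.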

How the data were processed

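Per the submitters' processing notes, Affymetrix Expression Console made the deposited log2 values, 1 per probe set and array, running from 1.44 to 19.7. Its version, the summary algorithm and the build of the annotation were not found in the labels or file headers. Arrays have no read depth, so their number sets the precision. After 6640 control rows of 28846 were left out, 22206 probe sets were tested. Symbols came from the platform annotation.

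One linear model of 4 group means over 16 arrays, grouped by title, was fitted with limma 3.58.1 (lmFit and eBayes, R 4.3.3), without a block. Benjamini-Hochberg adjustment covered all probe sets, with a threshold of 0.05. The procedure was tested on simulated data. Replicates are pools of separate mice, so p-values measure the spread between pools, and this fit treats both fractions of a pool as independent. Bounds for dim probe sets set each dim array at the background level, or at its own signal where higher.

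Same-numbered arrays of one agent were taken as fractions of the same mice, since 24 mice in groups of 3 make 8 pools. Deviations from group means correlated within pools at r between 0.0502 and 0.271, with 6 of 8 pools over 0.1 and 8 of 8 best matched by their own pool. Arrays of the same number and fraction but different agents come from different mice. For number 1 these correlated at 0.291 in titled GFP+ and 0.217 in titled GFP-, and for the other numbers at -0.0416 to 0.0985. The part of the shared number in the r within pools was not tested. Arrays of one group correlated with r from 0.989 to 0.993, and 0 pairs were identical.

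The receptors, gene lists and rules were chosen with earlier results of these data known. Named by rule were up to 10 receptors per direction passing between fractions in vehicle pools, the 4 smallest p where none passed, receptors called opposite to both neighbours, the 3 probe sets most like each extreme, and up to 3 members per gene list. Other called receptors, and Gnal, Adcy3, Cnga2, Lhx2, Ebf1, H2-T23, H2-Q4, H2-M3, Pde4a, Trim10 and Mog, were named after their values were seen. Not used here were a ranking of levels, since probe affinities differ, and protein identity between paralogs, for want of protein sequences. Alternatives covered scaling, a filter on dim probe sets, the groups in the fit, replicate blocks, the prior variance, array weights and each pool left out.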

Additional observations from a re-analysis of the deposited data

Results flagged for a closer look

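In 104 groups of 4 arrays checked for the receptors named by rule, 4 had an array apart from the other three by Dixon's criterion, and chance alone gives about 1 in 20 groups. Olfr55 in vehicle arrays titled GFP- had 13.83 in pool 1, with the next array at 12.99 and the lowest at 12.83. Olfr117 in undecanal arrays titled GFP+ had 12.69 in pool 4, with the other arrays between 12.50 and 12.51. Olfr112 in the same group had 10.31 in pool 4, with the others between 9.86 and 9.89. Olfr124 in undecanal arrays titled GFP- had 8.98 in pool 1, with the others between 9.83 and 10.00. The calls of Olfr55 and Olfr112 held without each of these pools, and Olfr117 lost its undecanal call without pool 4, at a limma adjusted p of 0.104.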

How the results depend on the processing

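Counts of calls between fractions stayed within 1.5 times the reported ones except the lower calls: 19 against 10 in undecanal pools with array median centring, and 9 against 15 in vehicle pools with mature neuron list centring and with receptor median centring. These centrings shift all probe sets by a constant per array, and the lower calls over all probe sets moved the same way. Leaving out each pool gave 24 to 27 calls in undecanal pools (13 to 17 higher, 8 to 12 lower) and 20 to 29 in vehicle pools (10 to 14 higher, 10 to 15 lower). With the pool as a fixed replicate block there were 20 higher and 11 lower calls in undecanal and 15 and 15 in vehicle pools. Over all probe sets that block gave 2065 and 1194, and 2093 and 1410. With the pool as a random replicate block there were 18 and 11, and 14 and 15, against 2179 and 1363, and 2169 and 1578 over all probe sets. Besides the changes given in the report, the pairing moved Olfr92 in undecanal pools to a limma adjusted p of 0.0327 under the random block and changed no other call among the 49. With the replicate number as a block across agents, which does not pair mice, counts were 19 and 11, and 14 and 17. Over all probe sets they were 2044 and 1097, and 2033 and 1246. Of 551 single checks in each agent, 20 lost and 4 gained a call in undecanal pools. In vehicle pools 47 lost and 0 gained a call, and 0 reversed in either agent. The checks covered only receptors called or named by rule, not all 49. Those checked in vehicle pools were all called in the main fit, so no gain was possible there. Among the receptors not checked, Olfr107, Olfr111 and Olfr133 gained a vehicle call with the pool as a fixed block. Olfr101 in undecanal pools, for example, ran from -4.49 to -3.82. The undecanal differences and the interaction gave 0 calls among the 49 under every alternative run. Receptors above background numbered 49 and 47 with the 75th and 99th percentile as background level. The 4 arrays per group limit the precision, and signal near background hides differences in Olfr108, below background in every group, and in Olfr128 and Olfr761, below it in both titled GFP- groups.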
